A study of Mus musculus with 39 samples.

Results

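The mitochondrial ribosomal proteins are described here through the 65 genes, of 13840 genes with 1 symbol in the probe annotation, whose symbol is Mrpl or Mrps followed directly by a number. The set holds 42 genes of the large subunit (Mrpl) and 23 of the small subunit (Mrps), and each gene is represented by the probe with the highest mean over all arrays. Of these genes, 64 (41 large, 23 small) had a value on every array and were tested; Mrpl21 lacked 1 value and was not. The signals come from 39 Applied Biosystems arrays, 1 per liver of an adult male mouse of the 129SV background. Wild-type mice and mice lacking PPARα (PPARa-null in the labels) were gavaged on 7 consecutive days. PFOA, a perfluorinated fatty acid given as its ammonium salt, was dosed at 1 or 3 mg/kg in deionized water, and pirinixic acid, a synthetic PPARα agonist for which the labels and the plots use the Wyeth code, at 50 mg/kg in 0.5% methylcellulose. The vehicle groups received water or methylcellulose alone. Each of the 10 groups has 4 arrays, except wild type with methylcellulose, which has 3. The labels do not say how the null allele was made.

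The mitochondrial ribosome translates the few messenger RNAs that the mitochondrial genome encodes, all of them for subunits of the respiratory chain and ATP synthase. Its RNA comes from the mitochondrial genome, whereas all of its proteins are encoded in the nucleus, made in the cytosol and imported. The small subunit binds the messenger RNA and decodes it, and the large subunit holds the peptidyl transferase centre and the exit tunnel, which lies against the inner membrane. Hepatocytes are rich in mitochondria, and PPARα, a nuclear receptor for fatty acids, drives genes of mitochondrial and peroxisomal fatty acid oxidation in them. Nuclear genes for mitochondrial proteins are known targets of the transcription factors NRF1, GABP and YY1.

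Promoters are shown for the members that passed the test in at least 1 comparison and have an entry in the RefSeq promoter table (build GRCm38.p6), so that their letters can be read beside their values. Mrpl54 and Mrps28 also passed. The 250 bases before each annotated start are given 5′ to 3′ on the strand of the gene, with capitals marking a match to the NRF1 core (GCGCATGCG) or to the cyclic AMP response element (TGACGTCA).
Mrpl17 (chr7:105811088-105811337, minus strand): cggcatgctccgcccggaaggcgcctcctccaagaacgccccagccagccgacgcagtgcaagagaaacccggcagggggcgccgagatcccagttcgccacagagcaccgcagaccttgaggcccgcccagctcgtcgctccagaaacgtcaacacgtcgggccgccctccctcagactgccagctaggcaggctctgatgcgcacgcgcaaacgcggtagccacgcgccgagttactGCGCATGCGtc
Mrpl16 (chr19:11770165-11770414, plus strand): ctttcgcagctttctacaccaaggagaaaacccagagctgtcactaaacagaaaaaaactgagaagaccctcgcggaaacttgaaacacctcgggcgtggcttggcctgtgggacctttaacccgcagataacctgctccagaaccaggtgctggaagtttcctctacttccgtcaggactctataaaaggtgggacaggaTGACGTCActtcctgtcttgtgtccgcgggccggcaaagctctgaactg
Mrps15 (chr4:126046678-126046927, plus strand): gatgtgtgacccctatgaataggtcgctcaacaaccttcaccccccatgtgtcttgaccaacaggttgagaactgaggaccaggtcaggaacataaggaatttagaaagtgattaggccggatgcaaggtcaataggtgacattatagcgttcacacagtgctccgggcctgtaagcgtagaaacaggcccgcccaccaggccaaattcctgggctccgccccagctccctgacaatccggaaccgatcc
Mrps36 (chr13:100744660-100744909, minus strand): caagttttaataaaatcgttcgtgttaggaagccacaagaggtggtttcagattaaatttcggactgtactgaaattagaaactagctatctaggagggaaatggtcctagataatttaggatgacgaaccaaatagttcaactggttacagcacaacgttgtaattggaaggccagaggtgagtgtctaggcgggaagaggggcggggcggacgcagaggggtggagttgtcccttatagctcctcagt
The NRF1 core ends just before the start of Mrpl17, and the cyclic AMP response element of Mrpl16 begins 49 bases before its start. Mrps15 and Mrps36 matched only the SP core (GGGCGG), which is left in lower case and also occurs in Mrpl17.

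Motifs were searched on both strands in windows from 250 bases before to 50 after the start, for 57 members and all 27025 genes of the table. The NRF1 core lay in 12.3% of the members (7 of 57) and 1.95% of all genes. The GABP core CCGGAAGT lay in 14% of the members (8) and 4.31% of all genes. The YY1 core AAGATGGC lay in 17.5% of the members (10) and 3.19% of all genes, and the SP core in 56.1% of the members (32) and 38.2% of all genes. The cyclic AMP response element was in 3.51% of the members (2) and 2.03% of all genes. A direct repeat of AGGNCA with 1 base between the copies lay in no member and in 0.451% of all genes. It is the form PPARα binds with its partner RXR. By subunit, the NRF1 core lay in 16.2% of the large-subunit and 5% of the small-subunit genes. The SP core lay in 45.9% of the large-subunit and 75% of the small-subunit genes. None of these matches was tested as a binding site.

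All values are log2 signals, and differences are given on that scale as treated minus vehicle with the standard error of the limma fit. A member was counted as changed at an adjusted p (Benjamini-Hochberg over all 25295 probes tested) under 0.05. Signals of different probes are not compared with each other, because brightness depends on the probe. The mean signal over the 39 arrays lay between 12 and 18 for 59 members. It was under 11 for Mrps14 (10.63), Mrpl51 (9.74), Mrpl48 (9.21), Mrpl15 (9.19), Mrpl21 (7.88) and Mrpl45 (7.86), against a median of 8.89 over all probes. The residual SD within groups had a median of 0.21 over the members and 0.54 over all tested probes. It reached 0.83 for Mrpl45, whose product anchors the ribosome at the inner membrane, so that its differences have wide errors. Mrpl12, Mrpl3, Mrpl44 and Mrps27, well-studied proteins of the ribosome, were not analysed here.

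Several features of the arrays touch these values. On the third wild-type array with PFOA 1 mg/kg, Ehhadh, a peroxisomal PPARα target, was at 15.94 against 20.01 to 20.31 on the other arrays of its group. Ehhadh was at 15.74 to 16.38 with water, so this library goes against its label. For comparisons that use its group, the number of members passing is given with and without it. Medians are so given against water and for the genotype difference. Counts without overlap and the order of the 10 groups include it. This array also enters the other comparisons, because all groups share 1 estimate of the spread. Without it, 6 members and 1572 of all probes passed with PFOA 3 mg/kg in wild type, against 5 and 1473 with it. For pirinixic acid in wild type 3 members passed either way, with 1665 of all probes without it and 1542 with it. The Ppara probe had signal in every null group (means 15.21 to 16.01) and does not check the genotype. Cox6b2, a respiratory chain gene, was at 9.06 on the third wild-type array with PFOA 1 mg/kg, against 16.38 to 16.95 on the others of its group. Every other wild-type array was at 13.29 or above, and the null arrays lay between 6.91 and 10.05. Which genotype or dose this array had was not tested. The arrays fall into sets of 16 and 23 by 82 probes, none of them a member; the source of the split is not known. The mean of 583 probes for genes that liver is not known to use (odorant, pheromone and taste receptors and proteins of hair keratin), ranged from 8.68 to 9.23 and is called the silent-gene index. Hepatocyte markers were bright throughout (mean 19.64 to 20.14 by group), as in liver. Within groups, deviations of the members from their group means moved together weakly over the 39 arrays, which share each array's normalisation: the median correlation was 0.226 over 2016 pairs, 0.233 between large-subunit members, 0.191 between small-subunit members and 0.234 across subunits.

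In wild-type liver, 3 mg/kg PFOA was followed by higher signals of members of both subunits, by modest amounts. Averaged over the members of each array, the large subunit was at 14.59 ± 0.09 (SD, n = 4) with water and 14.86 ± 0.16 with PFOA 3 mg/kg, and the small subunit at 14.58 ± 0.09 and 14.83 ± 0.18. Of 64 tested members, 56 had a positive difference (87.5%, against 47.9% of all probes), and the median difference was 0.25, against -0.02 over all probes. It was 0.24 for the large and 0.25 for the small subunit. In all, 5 members passed the test, all upward: Mrpl17, Mrpl54 and Mrpl16 of the large subunit and Mrps36 and Mrps28 of the small. Over all probes 5.82% passed in either direction and 3.37% upward. No test set the members against other probes. At an unadjusted p under 0.05 there were 22 members, all upward, and 18.6% of all probes in either direction. Every PFOA array lay above every water array for 12 members (9 large, 3 small), and for 5.7% of all probes.

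Mrpl17, a protein beside the exit tunnel of the large subunit, had the smallest adjusted p. Its signal was 16.80, 16.84, 16.69 and 16.92 on the water arrays of wild type and 17.39, 17.84, 17.90 and 17.38 with 3 mg/kg PFOA. The groups do not overlap. The difference was 0.82 ± 0.17 (adjusted p = 0.00305), a 1.76-fold change.

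Mrpl54, a small protein of the large subunit, rose by 0.57 ± 0.13 (adjusted p = 0.00743). It was at 15.20, 15.14, 15.30 and 15.21 with water and at 15.57, 15.81, 15.95 and 15.81 with PFOA 3 mg/kg. Again no PFOA array reached down to the water arrays. Mrpl16, which sits near the peptidyl transferase centre, was at 15.56, 15.38, 15.58 and 15.54 with water and at 15.75, 16.23, 16.40 and 15.90 with PFOA. It rose by 0.56 ± 0.15 (adjusted p = 0.0208), also without overlap.

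Of the small-subunit members, Mrps28 was at 15.75, 15.49, 15.70 and 15.78 with water and at 15.94, 16.26, 16.50 and 15.97 with PFOA 3 mg/kg. It rose by 0.49 ± 0.15 (adjusted p = 0.0464), with all PFOA arrays higher. Mrps36 was at 16.19, 16.01, 16.08 and 15.81 with water and at 16.09, 17.08, 16.84 and 16.63 with PFOA. The first PFOA array lies among the water arrays, and the difference was 0.64 ± 0.18 (adjusted p = 0.0268). Mrps36 carries the name of the small subunit, but its product is known as KGD4, a subunit of the alpha-ketoglutarate dehydrogenase complex. Without it, 4 members passed.

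**Figure D1:**
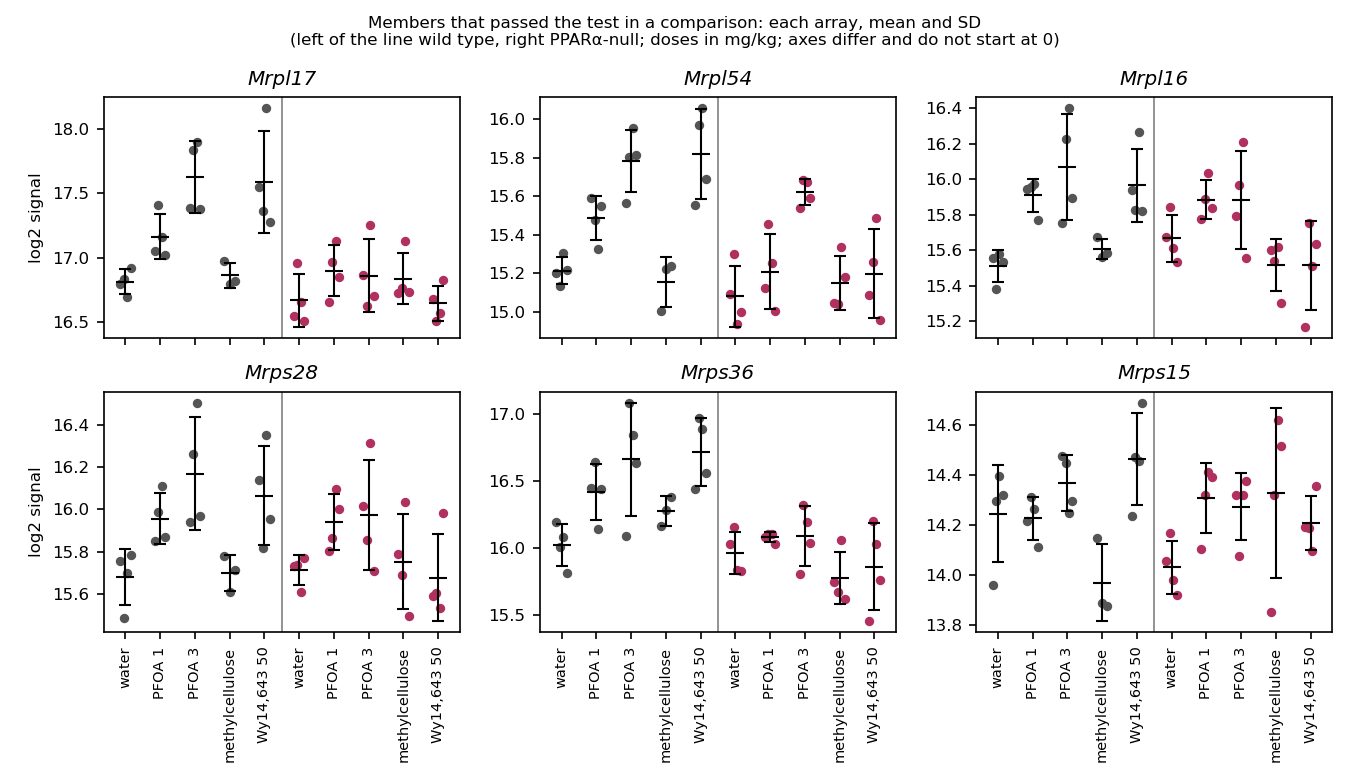
Log2 signal (vertical axes, which differ between panels and do not start at 0) of the 6 members that passed the test in at least 1 comparison, by group: points are arrays, bars the mean and SD. Mrpl17 lay between 17.38 and 17.90 in wild type with PFOA 3 mg/kg, above all 4 water arrays, and Mrpl54 was high with PFOA 3 mg/kg in both genotypes.

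Some members that missed the threshold had differences of similar size. Mrpl15 had a difference of 0.80 ± 0.28 (adjusted p = 0.0858), Mrpl40 of 0.50 ± 0.16 (0.0532) and Mrpl13 of 0.42 ± 0.14 (0.0642). Mrps5 had 0.62 ± 0.24 (0.145) and Mrps2 0.59 ± 0.25 (0.192). At the other end, Mrps14 had -0.35 ± 0.22 (0.418), Mrps31 -0.15 ± 0.17 (0.696) and Mrpl4 -0.13 ± 0.17 (0.759). Among members known from human disease, Mrps16 had 0.22 ± 0.17 (0.554) and Mrps22 had 0.02 ± 0.13 (0.970). Mrps12, the decoding-centre protein, had 0.24 ± 0.19 (0.561). Moving Mrps30, which is known to sit in the large subunit, and leaving Mrps36 out gave medians of 0.24 (42 genes) and 0.25 (21 genes).

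The PFOA arrays did not contribute alike. Of the 64 members, 34, 56, 56 and 53 lay above their water mean on the 4 wild-type arrays with PFOA 3 mg/kg. The first of these arrays had a member mean of 14.63, against 14.99, 14.96 and 14.82 on the others and 14.70, 14.48, 14.57 and 14.60 with water. The silent-gene index ran the other way: it was 9.04 on that first array and 8.76, 8.68 and 8.79 on the others, and 8.80, 9.05, 9.08 and 9.02 on the water arrays. With the index as a covariate, the median difference was 0.14, and 2 members passed (Mrpl17, 0.75 ± 0.18, adjusted p = 0.0106, and Mrpl54, 0.57 ± 0.14, 0.0118). Within the smaller array set, with 2 arrays a group, the median was 0.04 and no member passed. Within the larger set it was 0.51, and 4 members passed. No share over all probes is set beside the counts within the array sets. What part the index or the array sets have in the higher signals was not tested further. Among markers of liver cell types, hepatocyte genes had a median difference of -0.41 (1 of 5 called, downward) and Kupffer cell genes of -0.52 (1 of 6, downward). Endothelial genes had -0.10 (1 of 6 called upward and 2 downward), stellate cell genes -0.06 (1 of 5, downward) and red blood cell genes -0.28 (0 of 3). No lymphocyte, neutrophil or cholangiocyte marker was called (medians -0.03, -0.03 and -0.08). The part of these cells in the members' differences was not tested. In whole liver, fewer cells of a type and less RNA per cell cannot be told apart.

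Single arrays moved the count between 2 and 11, and no share over all probes is set beside these counts. Without the first PFOA 3 mg/kg array 11 members passed. Without the second there were 3, and without the third 2. Without water array 2, 3 or 4 there were 2, 3 and 3. Mrpl17 and Mrpl54 passed in all 8 of these fits. Mrpl16 lost its call without PFOA array 2 (adjusted p = 0.0763), PFOA array 3 (0.120) or water array 2 (0.0759). Mrps36 lost it without PFOA array 2 (0.136) or 3 (0.0999), or water array 2 (0.0672), 3 (0.0513) or 4 (0.0965). Mrps28 lost it without PFOA array 2 (0.123) or 3 (0.222), or water array 1 (0.0555), 2 (0.165), 3 (0.0919) or 4 (0.0689). When only the 2 groups compared entered the fit, no member passed.

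At 1 mg/kg PFOA in wild type, no member passed the test (0.273% of all probes did), and the smallest adjusted p was that of Mrpl16 (0.40 ± 0.15, adjusted p = 0.317). Of the 64 differences, 54 were positive, with a median of 0.19 (0.20 large, 0.19 small; 0.01 over all probes). At an unadjusted p under 0.05 there were 9 members, all upward (14.1%, against 11% of all probes in either direction). For 13 members (10 large, 3 small) every PFOA array lay above every water array, against 2.91% of all probes. This comparison shares its 4 water arrays with the one at 3 mg/kg, so the groups of differences are not independent. Mrpl17 was at 17.05, 17.41, 17.16 and 17.02 and Mrpl54 at 15.59, 15.48, 15.33 and 15.55, all above water. The member mean of the third array, whose Ehhadh went against its label, was 14.78, inside the range of its group (14.70 to 14.86). Without it the median was 0.18 and no member passed, and the group's large-subunit mean was 14.78 ± 0.08 (SD, n = 3). With the silent-gene index as a covariate the median was 0.05.

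The doses themselves were not separated by the test. Between 3 and 1 mg/kg in wild type no member passed (0.0277% of all probes), with 3 members at an unadjusted p under 0.05 (4.69%, against 7.5% of all probes); without the array that goes against its label none passed either. The median difference was 0.07. Mrpl17 was higher at the higher dose by 0.47 ± 0.17 (adjusted p = 0.467).

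Pirinixic acid was followed by a more mixed pattern in wild type. In all, 3 members passed, all upward: Mrpl54, Mrpl17 and Mrps15. Over all probes, 6.1% passed in either direction and 2.8% upward. Only 38 of 64 differences were positive, with a median of 0.07 (0.06 large, 0.07 small; -0.03 over all probes). The array means were 14.67 ± 0.10 (SD, n = 3) with methylcellulose and 14.74 ± 0.13 (n = 4) with pirinixic acid for the large subunit, and 14.68 ± 0.07 and 14.76 ± 0.14 for the small. At an unadjusted p under 0.05 there were 14 members, 13 of them upward, against 20.9% of all probes. Without overlap, 11 members were higher (7 large, 4 small; 7.8% of all probes) and Mrpl4 (-0.44) lay wholly below its vehicle, as did 9.55% of all probes.

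Mrpl54 was at 15.01, 15.22 and 15.24 with methylcellulose and at 15.56, 15.97, 16.06 and 15.69 with pirinixic acid. It rose by 0.66 ± 0.14 (adjusted p = 0.00453), with every treated array above the vehicle. Mrpl17 went from 16.97, 16.79 and 16.82 to 17.55, 17.36, 18.16 and 17.28, a rise of 0.73 ± 0.19 (0.0162) without overlap. The third pirinixic acid array was the highest of all 39 for this gene.

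Mrps15, a small-subunit protein of bacterial ancestry that binds ribosomal RNA, was at 14.15, 13.88 and 13.87 with methylcellulose and at 14.24, 14.47, 14.45 and 14.69 with pirinixic acid. It rose by 0.50 ± 0.15 (adjusted p = 0.0441), and 2 of its methylcellulose arrays lay below all water arrays of wild type, which were at 13.96, 14.30, 14.40 and 14.32. With PFOA 3 mg/kg its difference was 0.12 ± 0.14 (0.707). Mrpl30 had 0.56 with pirinixic acid and missed the threshold (0.0618). Mrpl48 had the lowest difference, -0.72, on a dim and variable probe.

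The third pirinixic acid array had a member mean of 14.94, against 14.72, 14.66 and 14.67 on the others, and 51 members above the vehicle mean, against 36, 32 and 27. Without it 1 member passed (Mrpl54), as also without methylcellulose array 2 or 3. Mrpl17 lost its call in those 3 fits (adjusted p = 0.0877, 0.0668 and 0.0645). Mrps15 lost it in 6 of 7 fits that left out 1 array, with adjusted p from 0.0515 (methylcellulose array 1) through 0.0814, 0.0839 and 0.137 (pirinixic acid arrays 2, 3 and 4) to 0.146 and 0.164 (methylcellulose arrays 2 and 3). All 4 pirinixic acid arrays belong to the larger array set, and within that set no member passed. When only the groups compared were fitted, none passed either. With the silent-gene index as a covariate the median was 0.17, and 5 members passed. In that fit 1354 of all probes passed, against 1542 in the main fit. Red blood cell markers had a median difference of -1.01 with pirinixic acid (1 of 3 called), Kupffer cell markers -0.69 (3 of 6), endothelial -0.45 (2 of 6), stellate -0.40 (1 of 5) and hepatocyte markers -0.26 (1 of 5), with every call downward. Lymphocyte, neutrophil and cholangiocyte markers had medians of 0.38, 0.48 and 0.47 and no call. The part of these cells in the members' differences was not tested.

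**Figure D2:**
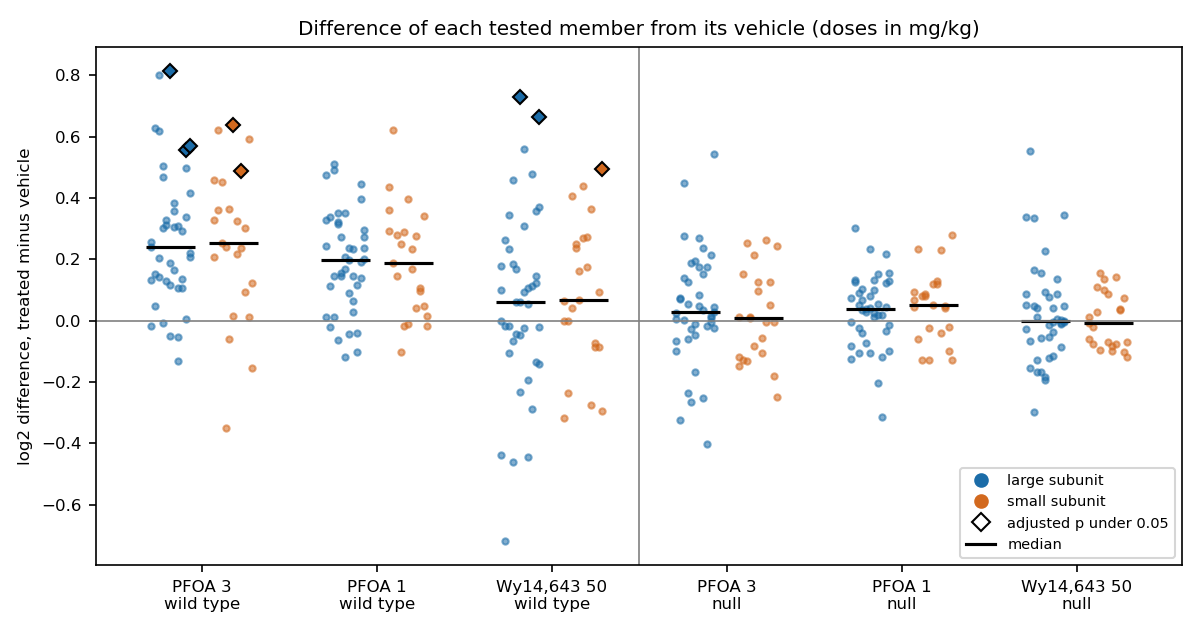
Log2 difference of each of the 64 tested members from its vehicle (vertical axis) in the 6 treated groups, with the large subunit in blue and the small in orange. Diamonds mark an adjusted p under 0.05 and lines the medians. The medians of both subunits are 0.24 and 0.25 with PFOA 3 mg/kg and 0.20 and 0.19 with 1 mg/kg in wild type, and stay within 0.07 of 0 in the other groups.

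In PPARα-null liver no member passed the test after any treatment. With 3 mg/kg PFOA, 0.3% of all probes passed, and 38 members had a positive difference, with a median of 0.01 (0.03 large, 0.01 small; -0.03 over all probes). A single member, Mrpl54, had an unadjusted p under 0.05, against 8.35% of all probes. It was also the one member whose PFOA arrays all lay above water (2.47% of all probes). Mrpl2 (-0.27 ± 0.18) and Mrpl4 (-0.25 ± 0.17) lay wholly below it, as did 3.46% of all probes.

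Mrpl54 in null liver was at 15.09, 15.30, 14.94 and 14.999 with water and at 15.54, 15.69, 15.67 and 15.59 with PFOA 3 mg/kg. The difference was 0.54 ± 0.13 (adjusted p = 0.0795). At 1 mg/kg it was at 15.12, 15.45, 15.25 and 15.001, within the range of water or just beyond it. Mrpl17 in null liver was at 16.55, 16.96, 16.65 and 16.51 with water and at 16.86, 16.62, 17.25 and 16.70 with 3 mg/kg PFOA. These groups overlap, and the difference was 0.19 ± 0.17.

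With 1 mg/kg PFOA in null mice 0.0119% of all probes passed and no member had an unadjusted p under 0.05 (3.97% of all probes did). The median was 0.05, and 1 small-subunit member lay wholly above water (2.24% of all probes). With pirinixic acid in null mice 0% of all probes passed, 1 member had an unadjusted p under 0.05 (2.73% of all probes did), the median was -0.00, and no member lay wholly above its vehicle (1.32% of all probes did). Mrpl54 with pirinixic acid in null was at 15.08, 15.26, 15.49 and 14.96, against 15.04, 15.04, 15.34 and 15.18 with methylcellulose. Mrpl17 was at 16.68, 16.51, 16.57 and 16.82, against 16.72, 16.76, 17.13 and 16.73.

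The difference between genotypes was tested directly, by subtracting the response of wild type from that of null. No member passed for PFOA 3 mg/kg (0.415% of all probes), PFOA 1 mg/kg (0%) or pirinixic acid (1.24%). At an unadjusted p under 0.05 there were 6 members for PFOA 3 mg/kg, all with the smaller response in null, none for 1 mg/kg, and 6 for pirinixic acid, 5 of them smaller in null. These shares, 9.38%, 0% and 9.38%, lie under those of all probes, 10.7%, 5.04% and 15.1%. For 1 mg/kg, leaving out the array that goes against its label also gave no call, and the median over the members was -0.17 with and without it. Without it 1 member had an unadjusted p under 0.05, and 41 of all probes passed, against 0 with it. For PFOA 3 mg/kg the smallest adjusted p was that of Mrpl17 (-0.62 ± 0.24, 0.330), and the median over the members was -0.23 (-0.20 large, -0.24 small; -0.01 over all probes), with 54 of 64 below 0. With the silent-gene index as a covariate that median was -0.03. The genotype difference of Mrpl54 for PFOA 3 mg/kg was -0.03 ± 0.19 (0.972), so these arrays do not separate its response in the 2 genotypes.

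For pirinixic acid, Mrpl17 came closest to the threshold, at -0.92 ± 0.25 (adjusted p = 0.0626), followed by Mrpl54 at -0.62 ± 0.20 (0.105) and Mrps15 at -0.61 ± 0.20 (0.124). Single arrays decide these calls: Mrpl54 passed without the first wild-type pirinixic acid array, Mrps15 without the first null methylcellulose array and Mrpl17 without the fourth wild-type pirinixic acid array, 1 member in each of these fits. The median over the members was -0.06.

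**Figure D3:**
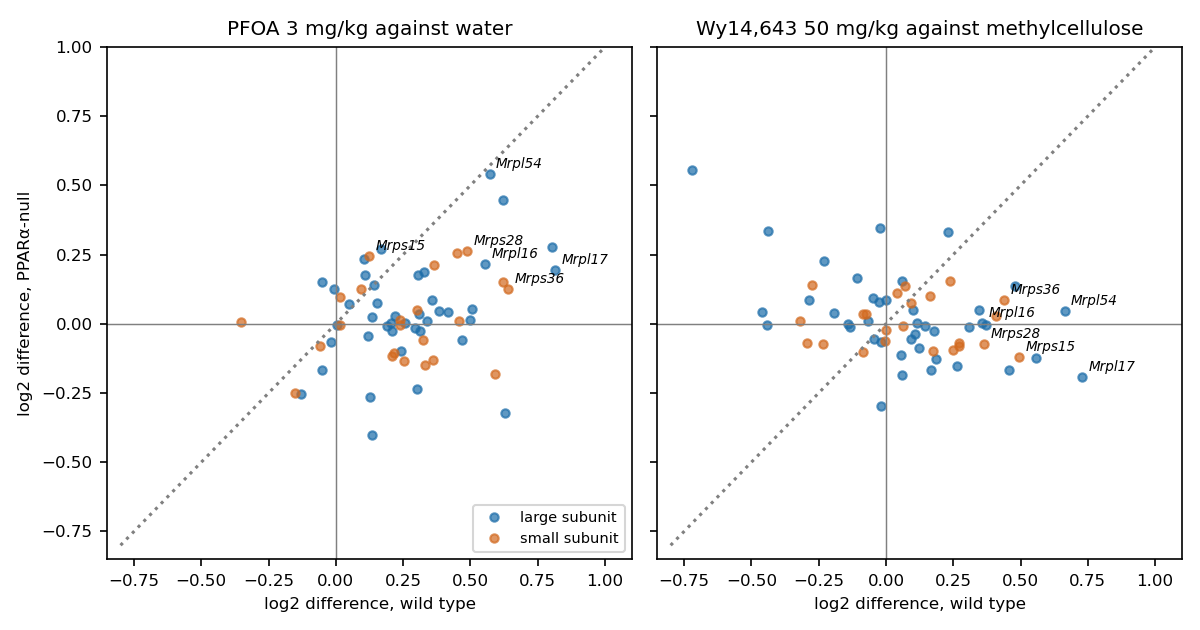
Log2 difference from vehicle in wild type (horizontal) and PPARα-null (vertical) for the 64 tested members, with PFOA 3 mg/kg on the left and pirinixic acid on the right; the dotted line marks equal differences. With PFOA, Mrpl54 lies next to the line (0.57 and 0.54) and Mrpl17 well under it (0.82 and 0.19).

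No member passed between genotypes on either vehicle, or between the vehicles. Null against wild type with water gave no call (0.127% of all probes) and 1 member at an unadjusted p under 0.05 (10.8% of all probes). With methylcellulose there was also no call (0.186%), but 12 members had an unadjusted p under 0.05, 11 of them lower in null (18.8%, against 12.5% of all probes). Mrpl42 had the smallest adjusted p (-0.53 ± 0.17, 0.191), followed by Mrpl32 (-0.49 ± 0.17, 0.219). Between 3 and 1 mg/kg PFOA in null mice no member passed (0.00791% of all probes), with 1 at an unadjusted p under 0.05 (4.57% of all probes), Mrpl54 (0.41 ± 0.13, adjusted p = 0.787). Methylcellulose against water gave no call in wild type (0% of all probes; no member at an unadjusted p under 0.05) or null (0%; 6 members, 9.38%, against 11.6% of all probes).

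Over all 10 groups, both subunits had their highest group means in treated wild type. The large-subunit mean was highest with PFOA 3 mg/kg in wild type (14.86 ± 0.16), followed by PFOA 1 mg/kg (14.78 ± 0.07) and pirinixic acid (14.74 ± 0.13) in wild type. Then came null with PFOA 3 mg/kg (14.68 ± 0.09), wild type with methylcellulose and null with PFOA 1 mg/kg level at 14.67 (± 0.10 and ± 0.02), null with water (14.64 ± 0.06) and wild type with water (14.59 ± 0.09). Null with pirinixic acid (14.52 ± 0.13) and with methylcellulose (14.50 ± 0.09) were lowest. Neighbours in this order differ by less than the larger of their SDs. Of the tested members, 25 had their highest group mean with PFOA 3 mg/kg in wild type, 17 with pirinixic acid in wild type and 0 with water in wild type. The lowest group mean was null with methylcellulose for 21 members and null with pirinixic acid for 20.

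**Figure D4:**
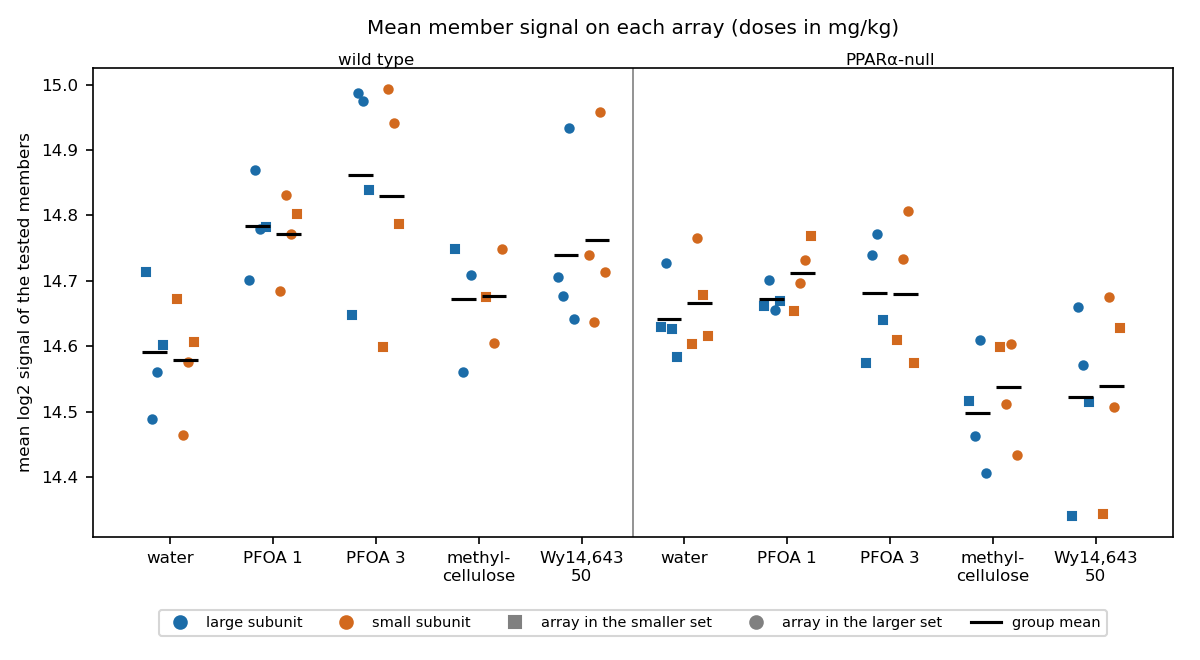
Mean log2 signal of the 41 large-subunit (blue) and 23 small-subunit (orange) tested members on each array (vertical axis, not from 0) by group, with squares and circles for the smaller and larger array sets and lines for group means. Wild type with PFOA 3 mg/kg holds the highest arrays of the large subunit (14.99 and 14.98) and 1 array at 14.65, among the water arrays.

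The other genes of mitochondrial translation were given by lists. With PFOA 3 mg/kg in wild type, 1 of 8 tested translation factors passed: Tufm, the elongation factor that delivers aminoacyl-tRNA to the ribosome, rose by 0.53 ± 0.14 (adjusted p = 0.0225). None of 14 mitochondrial aminoacyl-tRNA synthetases, 17 assembly and ribosomal RNA processing genes, 6 mitochondrial transcription genes or 4 ribosomal protein genes with other names passed. Their medians were 0.14, 0.06, 0.08 and 0.16. The translation factors had a median of 0.36, with 5 of 8 differences positive. Of 7 regulators, Myc, a growth-linked transcription factor that ribosome genes respond to, rose by 2.61 ± 0.68 (0.0174), and Ppargc1a, the coactivator of mitochondrial biogenesis, fell by 1.11 on the log2 scale (SE 0.32, 0.0341). No gene of these lists passed in the other 5 treated groups. Tufm had 0.41 ± 0.16 with pirinixic acid in wild type (0.119) and -0.01 ± 0.14 with PFOA 3 mg/kg in null.

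The cytosolic ribosome and the respiratory chain give a scale for these differences. With PFOA 3 mg/kg in wild type, 2 of 59 cytosolic ribosomal proteins passed upward (Rps26 and Rplp2; median 0.07) and 8 of 59 respiratory chain and ATP synthase subunits (median 0.18), beside 5 of 64 mitochondrial ribosomal proteins (median 0.25). With pirinixic acid in wild type, 1 cytosolic ribosomal protein passed upward (Rps26) and 1 downward (Rpl9; median -0.07), and 9 respiratory chain subunits passed upward (median 0.19), beside 3 mitochondrial ribosomal proteins (median 0.07). With PFOA 3 mg/kg in null, the medians were 0.04, -0.08 and 0.01, with no call in any of these sets. Whether the sets differ was not tested.

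Only 2 members had a second probe. For Mrpl49 the probe used had 0.13 with PFOA 3 mg/kg in wild type (adjusted p = 0.916) and the other 0.51 (0.104). For Mrps33 the probe used had 0.32 (0.305) and the other, dim one 1.03 (0.204). The differences of Mrpl49 therefore depend on the probe, although no call does.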

How the data were processed

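Liver RNA was hybridised to 1 array per animal, 4 per group by the series' design. The authors deposited 1 table of log2 signals. Read from the values, the array medians span 0.00089. Over the tested probes, the same quantile differed between arrays by up to 0.36. Neither labels nor table name the software, normalisation, background correction or log base, and base 2 is taken from the range 4.85 to 21.5. Per the labels, RNA had an integrity number of at least 8.5. No further normalisation was applied. A linear model of all 10 groups was computed in limma 3.58.1 (R 4.3.3), each group having its own mean, with moderated variances (29 residual and 2.51 prior degrees of freedom), over the 25295 of 33012 probes with a value on all 39 arrays; 1.15% of values are missing. In all, 15 differences were tested, two-sided, with Benjamini-Hochberg adjustment and a threshold of 0.05. The number of arrays limits the precision. Gene names come from the platform's probe annotation; all 65 members matched RefSeq by Entrez number. The fit was tested on simulated data. The members, lists and tests were chosen with earlier results of these data known. Members named are up to 5 per direction and comparison that passed, those with the brightest and dimmest probes (the brightest are left out, since probes are not compared), 8 that were always to be named, and others chosen after their values were seen. From other lists, up to 3 genes per list and comparison are named. Alternatives were the replicate number or the array set as a block, each array set alone, the silent-gene index as a covariate, cyclic loess, a filter on dim probes, an intensity trend with robust variances, the compared groups alone, leaving out each array, and other choices of probes and members.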

Additional observations from a re-analysis of the deposited data

Results flagged for a closer look

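The 6 members that passed and the array means of both subunits were looked at for arrays standing apart within their group, 72 times over the groups of 4 arrays; 3 arrays did, all for single members, and chance gives about 1 in 20 such groups. Mrpl16 on the fourth wild-type array with PFOA 1 mg/kg was at 15.77, against 15.94 to 15.97 on the others of its group. Mrpl17 on the third null array with methylcellulose was at 17.13, against 16.72 to 16.76. Mrps28 on the fourth null array with pirinixic acid was at 15.98, against 15.53 to 15.61.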

How the results depend on the processing

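No member that passed changed direction under any alternative. The number of members that passed with PFOA 3 mg/kg in wild type, 5, was 8 with the array set as a block, 0 within the smaller set, 2 with the silent-gene index as a covariate, 8 after cyclic loess, 10 among probes above the median signal, 9 with an intensity trend and robust variances, and 0 with only the groups compared; leaving out 1 array gave 2 to 11. Its median of 0.25 was 0.038 within the smaller and 0.51 within the larger array set. For pirinixic acid in wild type, 3 members became 0 within the larger set, 5 with the index and 0 with only the groups compared; leaving out 1 array gave 1 to 4. With PFOA 3 mg/kg in null, 1 member (Mrpl54) passed among probes above the median signal and with an intensity trend. For the genotype difference with pirinixic acid, 1 member (Mrpl17) passed with the index, after cyclic loess, among probes above the median signal and with an intensity trend; leaving out 1 array gave 0 to 1. Over all probes 434 passed for that genotype difference with the index and 312 after cyclic loess, against 313 in the main fit. With PFOA 3 mg/kg in wild type, 1473 of all probes passed in the main fit. That number was 1663 with the array set as a block, 1258 with the index and 1489 after cyclic loess. For pirinixic acid in wild type 1354 of all probes passed with the index, against 1542 in the main fit. The median with pirinixic acid in null, -0.00, was 0.14 within the larger set, and that with PFOA 1 mg/kg in wild type, 0.19, was 0.0526 with the index. Leaving out Mrps36 or the tested members with a mean signal under 11, and counting Mrps30 as large, were alternatives chosen after seeing the data. Counts under the remaining alternatives have no share over all probes beside them, so a change of the members is not told from one of the whole test. Where a fit holds fewer arrays the test has fewer degrees of freedom. For the other changes the cause was not tested.

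Replicate numbers were shared across groups in the labels. Deviations of arrays with the same number had a correlation over 0.1 in 10 of 23 pairs and under -0.1 in 4 (-0.263 to 0.209, median 0.07). Whether the numbers mark a batch or a pairing was not tested. With the replicate block, 9 members passed in wild type with PFOA 3 mg/kg and 5 in wild type dosed with pirinixic acid. In that fit 1 member (Mrpl54) passed with PFOA 3 mg/kg in null, and 1 (Mrpl17) for the genotype difference with pirinixic acid. No share over all probes is set beside these counts.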
